A study of Homo sapiens with 18 samples.

Results

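The genes described here are the collagen chains, that is, every gene whose name is COL, a number, the letter A and a number with nothing after it. 44 of the 60675 gene identifiers in the deposited tables carry such a name. RNA was sequenced from U87, an established human glioblastoma cell line whose label gives the cell type as glial and the genetic modification as none. The cells received ethanol, the vehicle, or 100 nM of 1 of 5 rexinoids for 24 h, and each of the 6 groups held 3 libraries. The rexinoids were bexarotene, which the series names as a control beside ethanol, and the compounds known only as A34, A41, A80 and A98. All libraries come from 1 cell line, and the labels do not say whether replicates were separate cultures, so the p-values measure only the spread between these libraries.

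Collagens are secreted or membrane-bound proteins in which chains wind around one another into a long helix, and most are built into fibres, filaments or sheets outside the cell. Each chain is the product of its own gene, and a cell has to make the matching chains together, hydroxylate and fold them in the endoplasmic reticulum, trim their ends and crosslink them. In brain, collagen is found mainly in the meninges and in the basement membranes of blood vessels, and glioblastomas add collagen to the matrix around the tumour cells. Rexinoids bind retinoid X receptors, nuclear receptors that sit on DNA together with partner receptors at repeats of the short sequence AGGTCA.

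Levels are given as scaled TPM, the deposited TPM (reads per transcript length, as a share of the library) divided by a scaling factor for each library. TPM is already per length, so levels of different chains can be set side by side. A gene was tested where it had at least 1 TPM in at least 3 libraries, which 18269 genes and 21 of the 44 chains met. The libraries held 1.31 to 3.89 gigabases of aligned sequence. 3 libraries were rich in ribosomal RNA: its share of TPM reached 56.1% for A41 replicate 2, 44.9% for bexarotene replicate 1 and 35.5% for ethanol replicate 2, while the other 15 stayed at or below 4.43%. Markers that would place the cells as astrocytes were mixed. CLU and GJA1 averaged 197 and 68.5 scaled TPM, GFAP, the astrocyte filament protein, lay between 0.209 and 1.60, and S100B was listed at 0 in 17 of 18 libraries. Over 8 marker lists of brain, vessel, blood, connective tissue and epithelial cells, limma called no gene in any comparison with ethanol or between rexinoids. At an unadjusted p under 0.05 the most in a list was 3 entries. For A41 against ethanol these were 3 of 5 tested entries for pericytes and smooth muscle, beside 10.4% of all genes. In that list 2 of the 5 entries are identifiers of 1 gene, RGS5. For A98 against A41 the entries were 3 of 4 for astrocytes (7.28%), and for A41 against A34 3 of 6 for neurons (7.84%). Of the leukocyte and microglia markers, PTPRC averaged 0.057 scaled TPM while CD68 averaged 175 and CSF1R 12.2. Of the endothelial markers, CDH5 averaged 0.064 while KDR averaged 1.87 and TEK 1.64.

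Start-site sequences are shown for chains whose position or letters the results below refer to. RefSeq promoter windows on GRCh38.p14 were matched by symbol for 32 of the 44 chains, 15 of them among the 21 tested. Each printed run is 5′ to 3′ on the gene's own strand, in lower case, with capitals for matches on either strand to the TATA box letters TATAAA, to the box CCAAT, to the GC box GGGCGG and to the receptor site AGGTCA. COL6A2, the chain of highest level, is read from chr21:46097862-46098096 on the plus strand, COL7A1 from chr3:48595330-48595579 on the minus strand, and COL4A5 from chrX:108439588-108439837 on the plus strand. The last lies in the gap of 340 bases between COL4A5 and COL4A6, which are transcribed away from each other.
COL6A2: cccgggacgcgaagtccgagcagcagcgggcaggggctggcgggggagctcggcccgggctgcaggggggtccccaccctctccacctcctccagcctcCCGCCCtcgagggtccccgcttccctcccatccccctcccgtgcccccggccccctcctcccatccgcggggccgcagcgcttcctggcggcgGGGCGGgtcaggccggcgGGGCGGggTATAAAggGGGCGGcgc
COL7A1: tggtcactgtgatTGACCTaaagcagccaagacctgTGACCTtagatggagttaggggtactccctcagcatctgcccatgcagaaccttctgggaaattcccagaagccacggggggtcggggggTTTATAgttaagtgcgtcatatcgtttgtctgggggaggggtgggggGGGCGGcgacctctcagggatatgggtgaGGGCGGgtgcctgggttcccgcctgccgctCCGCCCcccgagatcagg
COL4A5: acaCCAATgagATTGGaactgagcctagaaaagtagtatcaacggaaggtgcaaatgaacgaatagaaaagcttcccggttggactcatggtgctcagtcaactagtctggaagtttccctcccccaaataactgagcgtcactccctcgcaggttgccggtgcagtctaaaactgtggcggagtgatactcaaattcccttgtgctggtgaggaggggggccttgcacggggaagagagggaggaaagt

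The COL6A2 run is 235 bases long, ends 15 bases short of the RefSeq start site and holds 1 TATAAA and 4 GGGCGG matches. The COL7A1 run holds 1 TATAAA, 3 GGGCGG and 2 AGGTCA matches, and the COL4A5 run holds 2 CCAAT matches and none of the other motifs. Among all 35116 windows of the 250 bases before a start site, 10.7% held TATAAA, 32.0% held CCAAT, 42.6% held GGGCGG and 12.1% held AGGTCA. COL7A1 was the only chain of the 32 with AGGTCA in its window. TATAAA was present for 7 chains, CCAAT for 11 and GGGCGG for 21, counting a match in any window of a chain. The shares above are per window, and the 32 chains had 44 windows. Of these windows 8 held TATAAA, 12 CCAAT, 24 GGGCGG and 1 AGGTCA. A match is a description of the letters in the window and says nothing about binding there.

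Type VI chains made up most of the collagen RNA in U87 cells, with COL6A2, COL6A3 and COL6A1 the 3 chains of highest level. The 5 type VI chains together took 66.7% of collagen TPM, with 4 of the 5 tested. The fibrillar chains (5 of 11 tested) took 16.9%, type VII, a single chain, took 6.12%, and the fibril-associated chains (3 of 10 tested) took 4.83%. The type IV basement membrane chains took 1.46% (3 of 6 tested), the short-chain collagens 1.42% (2 of 3), the multiplexins 1.33% (1 of 2) and the transmembrane collagens 1.24% (2 of 4). COL26A1 and COL28A1, which fall in none of these classes, took 0.0154% together and neither was tested. The summed collagen level was 888 ± 102 scaled TPM (SD, n = 3) with ethanol. It was 877 ± 156 for bexarotene, 933 ± 233 for A34, 826 ± 56.6 for A41, 961 ± 152 for A80 and 886 ± 69.8 for A98 (SD, n = 3 each). These sums overlapped between all groups. Between 16 and 21 chains reached 1 TPM in a library.

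**Figure D1:**
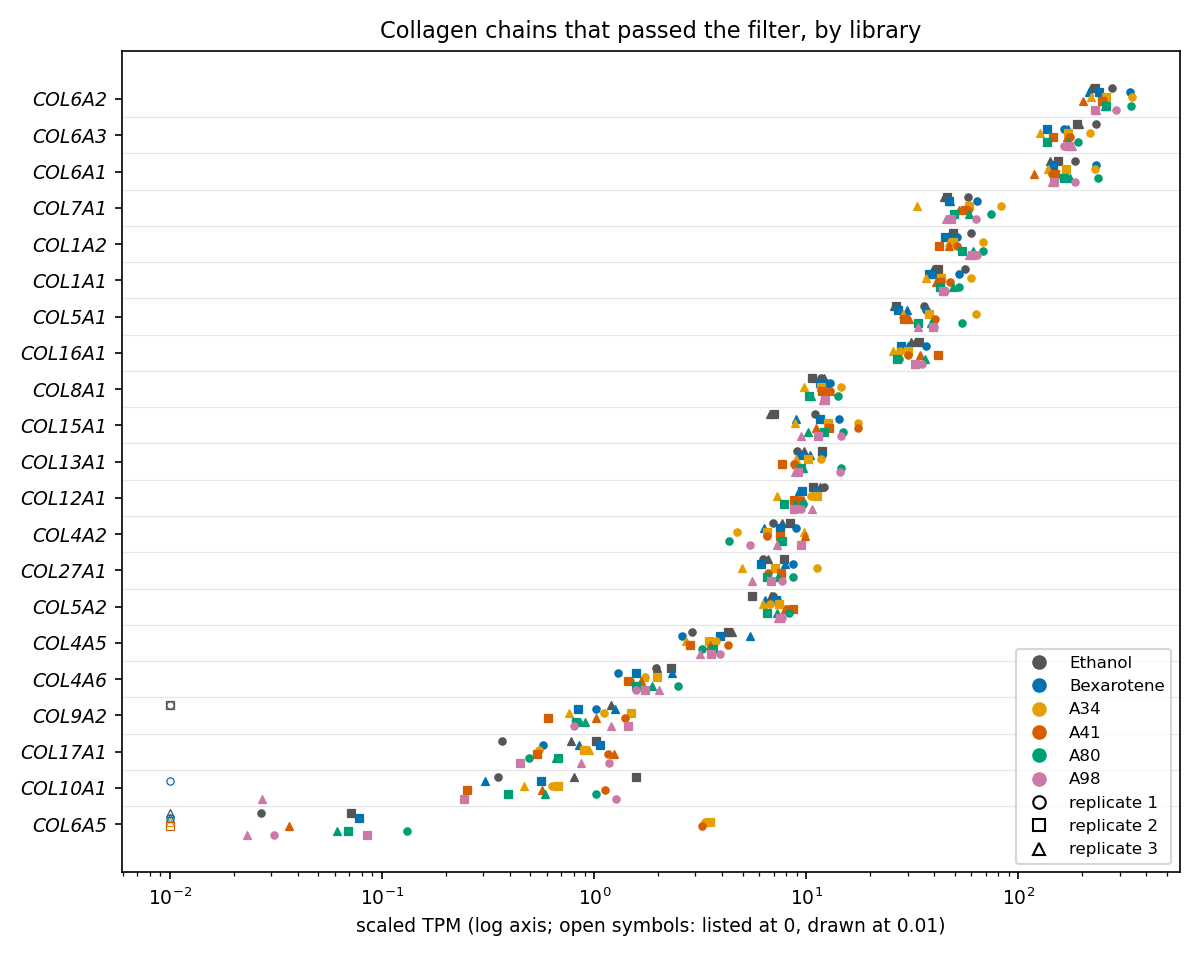
Scaled TPM (log axis) of the 21 collagen chains that passed the filter, in each of the 18 libraries, coloured by group with a symbol for each replicate number and ordered by mean level. COL6A2, COL6A3 and COL6A1 lie above 100 in all libraries, while COL6A5 is above 3 in 3 libraries and at 0.131 or below in the other 15.

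23 chains did not pass the filter. COL11A1, a minor fibrillar chain, came closest, with 2 libraries at 1 TPM or more and a highest value of 1.80 TPM in A34 replicate 1. Among the others, the highest TPM in any library was 0.851 for COL22A1, 0.613 for COL4A3, 0.528 for COL21A1, 0.347 for COL5A3, 0.309 for COL4A1, 0.3 for COL28A1 and 0.288 for COL18A1, the chain that yields endostatin. It was 0.238 for COL8A2, 0.221 for COL24A1, 0.204 for COL2A1, 0.183 for COL4A4, 0.171 for COL9A3, 0.155 for COL14A1 and 0.152 for COL3A1. It was 0.124 for COL11A2, 0.118 for COL6A6, 0.117 for COL20A1 and 0.104 for COL25A1. The remaining 4 (COL9A1, COL19A1, COL23A1 and COL26A1) stayed below 0.1 TPM in all 18 libraries. COL3A1, the usual companion of type I collagen in soft tissue, lay far below COL1A1 and COL1A2.

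Several neighbouring collagen genes differed widely in level. COL4A1 and COL4A2 start beside each other on chromosome 13, point in opposite directions and overlap by 1346 bases. COL4A2 averaged 7.33 scaled TPM and COL4A1, whose product is its usual partner in the vessel basement membrane, averaged 0.077. The strand setting of the counting is not stated, so reads in the overlap cannot be assigned to either gene. The second divergent pair, COL4A5 and COL4A6, averaged 3.62 and 1.81, and the third, COL4A3 and COL4A4 with a gap of 170 bases, averaged 0.106 and 0.0934. COL6A1 and COL6A2 lie on the same strand of chromosome 21, 93061 bases apart, and averaged 166 and 258. COL18A1, 468048 bases before COL6A1, averaged 0.128. COL5A2 at 7.22 lies 19151 bases from COL3A1 at 0.0715 on chromosome 2.

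No collagen chain passed the test against ethanol with any of the 5 rexinoids when replicate numbers were left out of the model. With them as a block, COL15A1 was called with A41 (adjusted p = 0.00162 in limma, which then called 1.05% of all genes), as given with that chain. The same block fit also called COL15A1 with A34, with A80 and for the mean of the 5 rexinoids, as given in the closing section. The test without a block was limma on log2(scaled TPM + 1) over all 18 libraries, with p-values adjusted by Benjamini-Hochberg over the 18269 genes and called under 0.05. It called 0 of the 21 chains with bexarotene, where it called 0.0602% of all genes, and 0 with A34 (0.0766% of all genes). For A41 the count was 0 (0.744%), for A80 0 (0.0493%) and for A98 0 (0.0383%). For the mean of the 5 rexinoids it called 0 chains and 0.208% of all genes. At an unadjusted p under 0.05 the chains numbered 2 with bexarotene, 3 with A34 and 4 with A41, against 5.8%, 10.7% and 10.4% of all genes. They numbered 2 with A80, 1 with A98 and 4 for the mean of the 5, against 9.45%, 6.66% and 10.3%. These counts include chains that entered the test mainly through rexinoid libraries. COL9A2, listed at 0 in ethanol replicates 1 and 2, was among them with bexarotene, A34 and A41 and was the 1 with A98. COL6A5, which passed the filter only through A34 replicates 1 and 2 and A41 replicate 1, was among them with A34. The 21 chains had a median log2 fold change of 0.05 for bexarotene and A34, 0.04 for A41, 0.08 for A80 and 0.03 for A98. Over all genes tested the medians lay between -0.01 and 0.001. The 95% intervals of the fold change lay within 1 log2 unit of 0 on both sides for 17 of 21 chains with A80 and A98 and for 18 with bexarotene, A34 and A41. On the log2(scaled TPM + 1) scale 1 unit is more than a 2-fold change of level, by a margin that grows as the level falls. The interval reached a median of 0.42 to either side of the estimate, and smaller changes cannot be told from none at this spread.

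**Figure D2:**
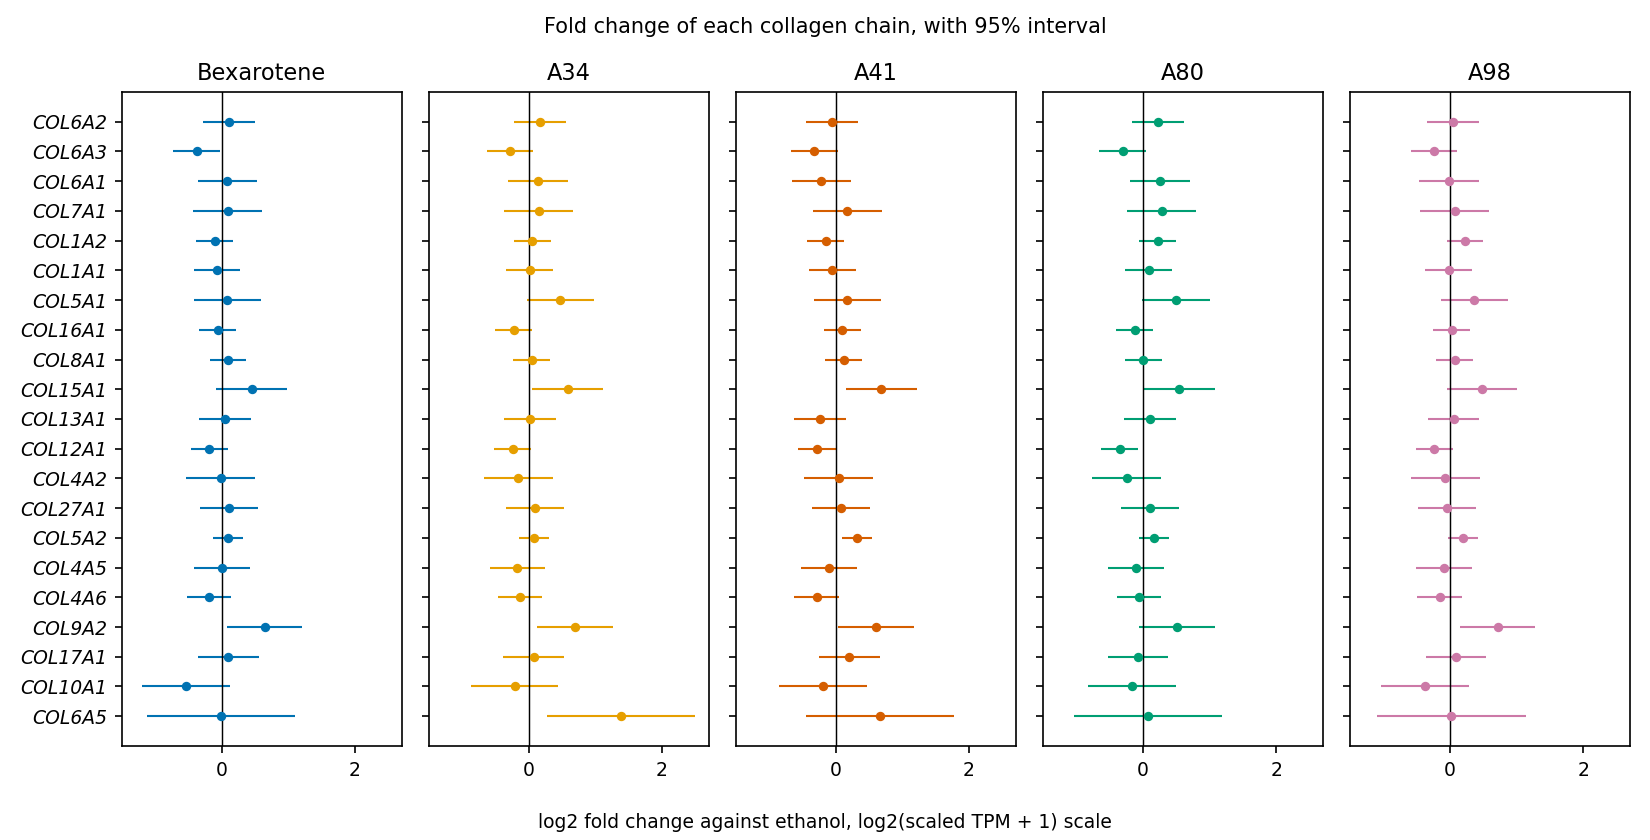
log2 fold change against ethanol (horizontal axis, log2(scaled TPM + 1) scale) of the 21 tested collagen chains, 1 panel for each rexinoid, with the 95% interval from limma. The chains are ordered by mean level, and the widest interval is that of COL6A5, whose estimate with A34 is 1.38.

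Type VI collagen forms beaded microfilaments that link cells to the surrounding matrix, and its usual molecule holds an α1, an α2 and an α3 chain, encoded by COL6A1, COL6A2 and COL6A3. COL6A2, on chromosome 21, had 276, 229 and 220 scaled TPM in ethanol replicates 1, 2 and 3. It had 336, 239 and 215 with bexarotene, 342, 260 and 220 with A34, 251, 247 and 201 with A41, 339, 258 and 256 with A80, and 288, 229 and 233 with A98. Every rexinoid overlapped ethanol, and replicate 1 was the highest library of its group in all 6. The 3 A80 libraries lay above the 3 A41 libraries, and the share of all genes that do so was not computed. COL6A1 had 184, 153 and 141 in ethanol, 232, 145 and 141 with bexarotene and 229, 168 and 137 with A34. It had 144, 149 and 118 with A41, 238, 163 and 176 with A80, and 184, 147 and 144 with A98. The estimates of both chains against ethanol lay between -0.22 and 0.26 on the log2 scale, with adjusted p-values of 0.75 or more in limma.

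COL6A3 encodes the long α3 chain, whose cleaved end circulates as endotrophin. It had 231, 190 and 194 scaled TPM in ethanol and 165, 136 and 170 with bexarotene. Under A34 it had 216, 171 and 126, under A41 176, 145 and 169, under A80 191, 137 and 171, and under A98 164, 174 and 179. The libraries with bexarotene, A41 and A98 lay below all 3 ethanol libraries, and 1 library each of A34 and A80 reached into the ethanol range. The estimate was below 0 with each rexinoid, from -0.24 with A98 to -0.38 with bexarotene (SE 0.16 each). None passed limma's test: the adjusted p was 0.83 with bexarotene (unadjusted p = 0.0352), and for the mean of the 5 rexinoids the estimate was -0.31 (SE 0.13, adjusted p = 0.41). COL6A5, which can take the place of the α3 chain, showed 3.34 and 3.5 scaled TPM in A34 replicates 1 and 2 and 3.20 in A41 replicate 1. In the other 15 libraries it was at 0.131 or below, with 5 of them listed at 0. It passed the filter through those 3 libraries alone. Its estimate with A34 was 1.38 (SE 0.52, adjusted p = 0.37 in limma). It was 1.04 without A34 replicate 1 (adjusted p = 0.80), 1.01 without A34 replicate 2 (adjusted p = 0.61) and 2.10 without A34 replicate 3 (adjusted p = 0.0776), none of which passed.

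COL6A3 was low relative to COL6A2 in nearly all rexinoid libraries, a difference that did not pass adjustment over the ratios compared. The ratio of COL6A3 to COL6A2 does not depend on the scaling of a library. It was 0.836, 0.826 and 0.879 in the ethanol libraries. It was 0.490, 0.571 and 0.792 with bexarotene, 0.633, 0.660 and 0.572 with A34, and 0.7, 0.588 and 0.841 with A41. It was 0.563, 0.529 and 0.669 with A80 and 0.570, 0.757 and 0.767 with A98. 14 of the 15 rexinoid libraries lay below the lowest ethanol library, and the exception, A41 replicate 3, lay inside the ethanol range. The mean log2 difference over the 15 libraries was -0.41 (exact two-sided permutation p = 0.00858 over libraries, 15 against 3). This was 1 of 36 comparisons of 6 such ratios, and its adjusted p was 0.3 (Benjamini-Hochberg). For a single rexinoid, 3 libraries against 3, the smallest p an exact permutation test can give is 0.1, which was reached with bexarotene, A34, A80 and A98. How often ratios of other genes separate so fully was not computed, here or for the ratios below. Without the 3 libraries rich in ribosomal RNA the difference was -0.39 (exact permutation p = 0.019), and leaving out any 1 library gave exact p-values from 0.00147 to 0.0294. These recomputed values draw on the same libraries and are no independent support.

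The ratio of COL6A3 to COL6A1 was 1.24 to 1.37 in ethanol and 0.708 to 1.43 over the rexinoid libraries, with 13 of 15 below the lowest ethanol library. Its mean log2 difference was -0.36 (exact permutation p = 0.0466, adjusted p = 0.3), which became p = 0.0952 without the 3 libraries of high ribosomal RNA. The p was also above 0.05, between 0.0559 and 0.132, when any 1 of 12 libraries was left out: each of the 3 ethanol, A34 and A80 libraries, bexarotene replicate 2, A41 replicate 2 and A98 replicate 1. The ratio of COL6A1 to COL6A2 was 0.574 to 0.604 with A41, below the 0.641 to 0.668 of ethanol in all 3 libraries (exact permutation p = 0.1, the smallest possible). With the other 4 rexinoids this ratio overlapped ethanol. Type VI chains made up 67.9% to 68.8% of collagen TPM in ethanol, 67.0% to 67.2% with A34, 63.3% to 65.6% with A41 and 64.7% to 66.0% with A98. The share was 66.2% to 69.4% with bexarotene and 65.7% to 68.0% with A80, both overlapping ethanol.

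**Figure D3:**
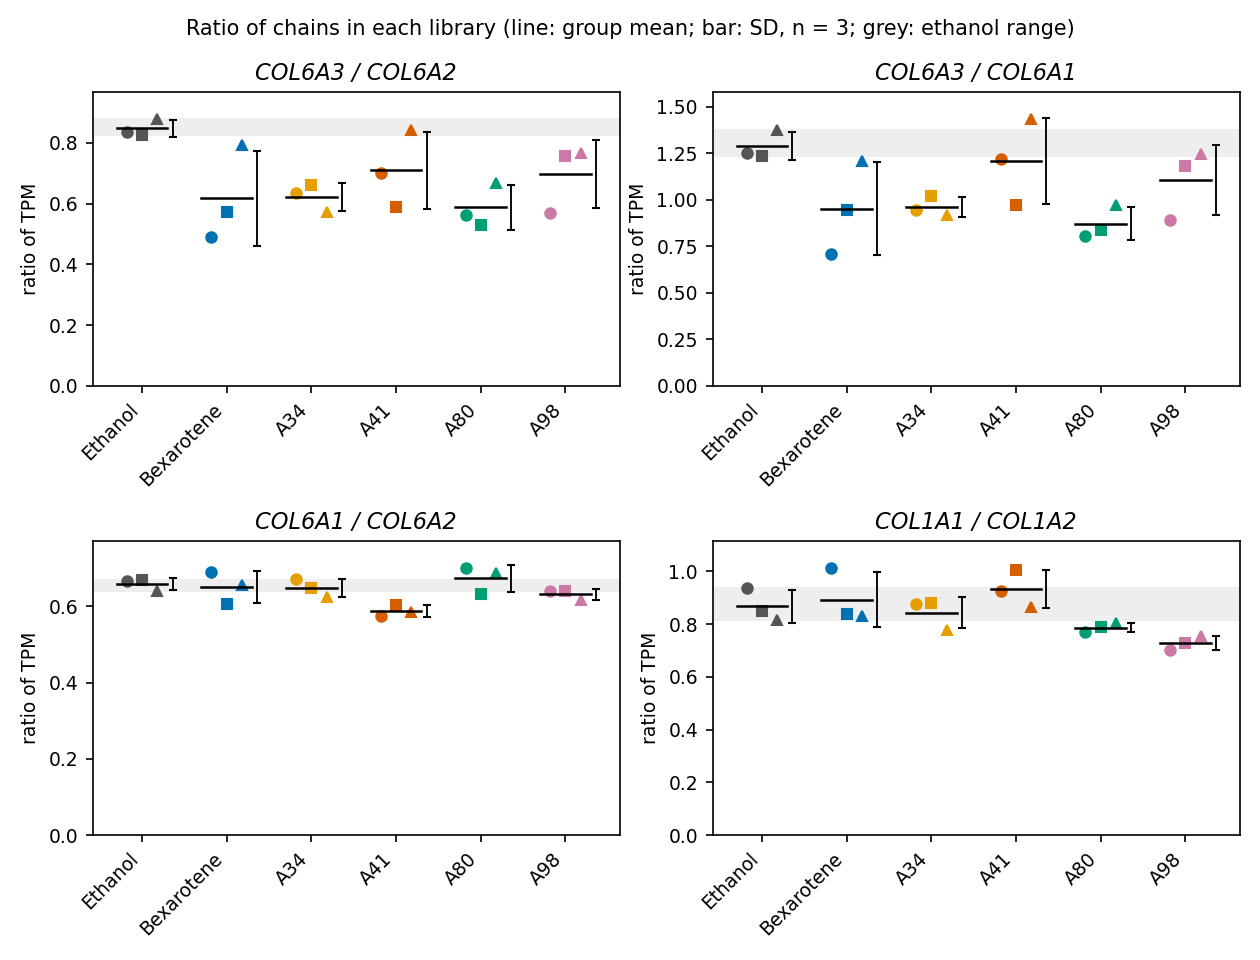
Ratio of the TPM of collagen chains of 1 type in each library, for COL6A3 to COL6A2, COL6A3 to COL6A1, COL6A1 to COL6A2 and COL1A1 to COL1A2, by group with the mean and SD (n = 3). The grey band is the ethanol range: 14 of 15 rexinoid libraries lie under it for COL6A3 to COL6A2, and all 3 libraries of A80 and of A98 lie under it for COL1A1 to COL1A2.

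Type I collagen is the main fibril collagen of connective tissue, with the COL1A1 chain outnumbering the COL1A2 chain in its usual molecule. COL1A2 on chromosome 7 had 59.6, 49.2 and 48.3 scaled TPM in ethanol, 51.6, 45.2 and 48.2 with bexarotene and 68.3, 49.1 and 47.2 with A34. It had 51.2, 42.3 and 46.9 with A41, 68.3, 53.9 and 61.1 with A80, and 63.9, 60.5 and 58.6 with A98. All groups overlapped ethanol. COL1A1 on chromosome 17 had 55.9, 41.8 and 39.3 in ethanol, 52.2, 37.8 and 39.9 with bexarotene and 59.7, 43.1 and 36.6 with A34. It had 47.4, 42.6 and 40.7 with A41, 52.5, 42.5 and 49.2 with A80, and 44.9, 44.1 and 44.2 with A98. The estimates of COL1A1 lay between -0.07 and 0.08. COL1A2 was the only chain with an unadjusted p under 0.05 in limma's test of any difference among the 5 rexinoids (adjusted p = 0.72). That test called 0 chains and 0.0766% of all genes, and 6.29% of all genes had an unadjusted p under 0.05.

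The ratio of COL1A1 to COL1A2 was 0.938, 0.849 and 0.814 in ethanol. It was 0.768 to 0.805 with A80 and 0.703 to 0.755 with A98, all below the ethanol libraries, with log2 differences of -0.14 and -0.25 (exact permutation p = 0.1 each, the smallest possible, adjusted p = 0.3). It overlapped ethanol with bexarotene (0.829 to 1.01), A34 (0.776 to 0.879) and A41 (0.866 to 1.01).

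Type V collagen starts type I fibrils and limits their width. COL5A1 on chromosome 9 had 35.8, 26.6 and 25.9 scaled TPM in ethanol, 36.6, 27.0 and 29.8 with bexarotene and 62.7, 37.7 and 28.6 with A34. It had 40.3, 28.9 and 30.5 with A41, 54.3, 33.8 and 38.7 with A80, and 40.2, 39.7 and 33.6 with A98. A34 replicate 1 was the highest library, and all groups overlapped ethanol. The estimates were 0.47 with A34 and 0.49 with A80 (SE 0.24; adjusted p = 0.50 and 0.54 in limma). Without A34 replicate 1 the estimate with A34 was 0.17, without A34 replicate 3 it was 0.72, and without A80 replicate 1 the estimate with A80 was 0.30. COL5A2 on chromosome 2 had 6.93, 5.57 and 6.84 in ethanol and 8.14, 8.66 and 7.89 with A41, all above ethanol. With A98 it had 7.67, 7.51 and 7.32, also above ethanol, while bexarotene (7.26, 7.17 and 6.39), A34 (6.73, 7.47 and 6.27) and A80 (8.24, 6.54 and 7.26) overlapped it. Its estimate with A41, 0.31 (SE 0.10), had the smallest unadjusted p of any chain in that comparison, 0.00886, and an adjusted p of 0.27 in limma. COL27A1, a fibrillar chain of cartilage, lay between 4.96 and 11.2 over all libraries, with estimates from -0.04 to 0.11.

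COL7A1, the anchoring fibril chain that ties epithelium to the tissue beneath it, came next by level after the type VI chains. It had 57.8, 45.8 and 44.8 scaled TPM in ethanol, 63.4, 47.2 and 47.5 with bexarotene and 82.7, 58.2 and 33.4 with A34. It had 57.9, 56.0 and 52.5 with A41, 74.2, 49.8 and 58.7 with A80, and 63.2, 48.0 and 45.6 with A98. The 3 A34 libraries spanned the highest and the lowest value of the series. No estimate passed limma's test, with a highest of 0.29 with A80 (SE 0.24, adjusted p = 0.76), which was 0.14 without A80 replicate 1. This is the chain whose window holds the AGGTCA matches shown above.

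Fibril-associated collagens sit on the surface of fibrils and have interrupted helices. COL16A1 on chromosome 1 had 33.4, 33.8 and 31.1 scaled TPM in ethanol, 36.5, 27.8 and 30.1 with bexarotene and 27.8, 30.1 and 25.7 with A34. It had 30.2, 41.8 and 34.2 with A41, 27.4, 26.8 and 36.4 with A80, and 35.1, 32.5 and 32.6 with A98. The A34 libraries lay below all ethanol libraries (estimate -0.23, SE 0.13, adjusted p = 0.55 in limma). COL12A1 on chromosome 6, a partner of type I fibrils, had 12.1, 10.8 and 11.5 in ethanol, 11.1, 9.52 and 9.25 with bexarotene and 10.5, 11.3 and 7.24 with A34. It had 9.35, 8.72 and 9.63 with A41, 9.64, 7.88 and 8.84 with A80, and 9.46, 8.75 and 10.6 with A98. The A41, A80 and A98 libraries all lay below ethanol. Its estimate was below 0 with each rexinoid, from -0.19 with bexarotene to -0.35 with A80 (SE 0.13), and none passed limma's test (adjusted p = 0.44 with A80, 0.39 for the mean of the 5).

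COL9A2, a chain of cartilage type IX collagen, was listed at 0 in ethanol replicates 1 and 2 and at 1.2 scaled TPM in replicate 3. It had 1.02, 0.835 and 1.25 with bexarotene and 1.11, 1.49 and 0.759 with A34. Under A41 it had 1.39, 0.606 and 1.02, under A80 0.837, 0.816 and 0.9, and under A98 0.806, 1.45 and 1.19. The rexinoid libraries thus overlapped the single ethanol library above 0. A value listed at 0 in a table without read counts can be a failed estimate. The unadjusted p was under 0.05 with bexarotene, A34, A41 and A98, and the adjusted p in limma was 0.38 or more with each rexinoid.

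COL15A1, a multiplexin of the basement membrane zone, had the largest estimate for the mean of the 5 rexinoids among chains above 1 scaled TPM on average, 0.55 (SE 0.19, adjusted p = 0.35 in limma). It had 10.99, 7.06 and 6.72 scaled TPM in ethanol, 14.2, 11.6 and 8.91 with bexarotene and 17.5, 12.7 and 8.82 with A34. It had 17.6, 12.8 and 11.1 with A41, 14.9, 12.1 and 10.2 with A80, and 14.6, 11.3 and 9.48 with A98. All 3 A41 libraries lay above ethanol, and the other rexinoids overlapped it through replicate 3. Replicate 1 was the highest and replicate 3 the lowest library in all 6 groups. The estimates were 0.68 with A41 (SE 0.25, adjusted p = 0.33 in limma), 0.58 with A34 (adjusted p = 0.42), 0.55 with A80 (adjusted p = 0.51), 0.48 with A98 (adjusted p = 0.78) and 0.45 with bexarotene (adjusted p = 0.86). Between ethanol and A41, libraries of the same title number had correlations of deviations from the group means of 0.17, 0.31 and 0.12. Between bexarotene and A41 they were -0.34, -0.36 and 0.18, so libraries of 1 number did not vary together over all groups. Because of the values for ethanol and A41, the fit with the replicate number as a block stands beside that comparison. There limma called 1 of 21 chains, COL15A1, at 0.68 (SE 0.09, adjusted p = 0.00162), and 1.05% of all genes. The call was not particular to A41. This fit, over all 18 libraries, also called COL15A1 with A34, with A80 and for the mean of the 5 rexinoids, as given in the closing section. Libraries of different numbers could vary together more strongly. The highest correlation of deviations from the group means was 0.45, between bexarotene replicate 1 and A41 replicate 2. Ethanol replicate 2 had 0.31 with A41 replicate 2 and 0.23 with bexarotene replicate 1. These 3 libraries are the ones rich in ribosomal RNA, and the part of this in the pairing was not tested. The adjusted p of COL15A1 with A41 over the alternatives without a block ran from 0.26 to 0.82. Without A34 replicate 1 its estimate with A34 was 0.36.

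**Figure D4:**
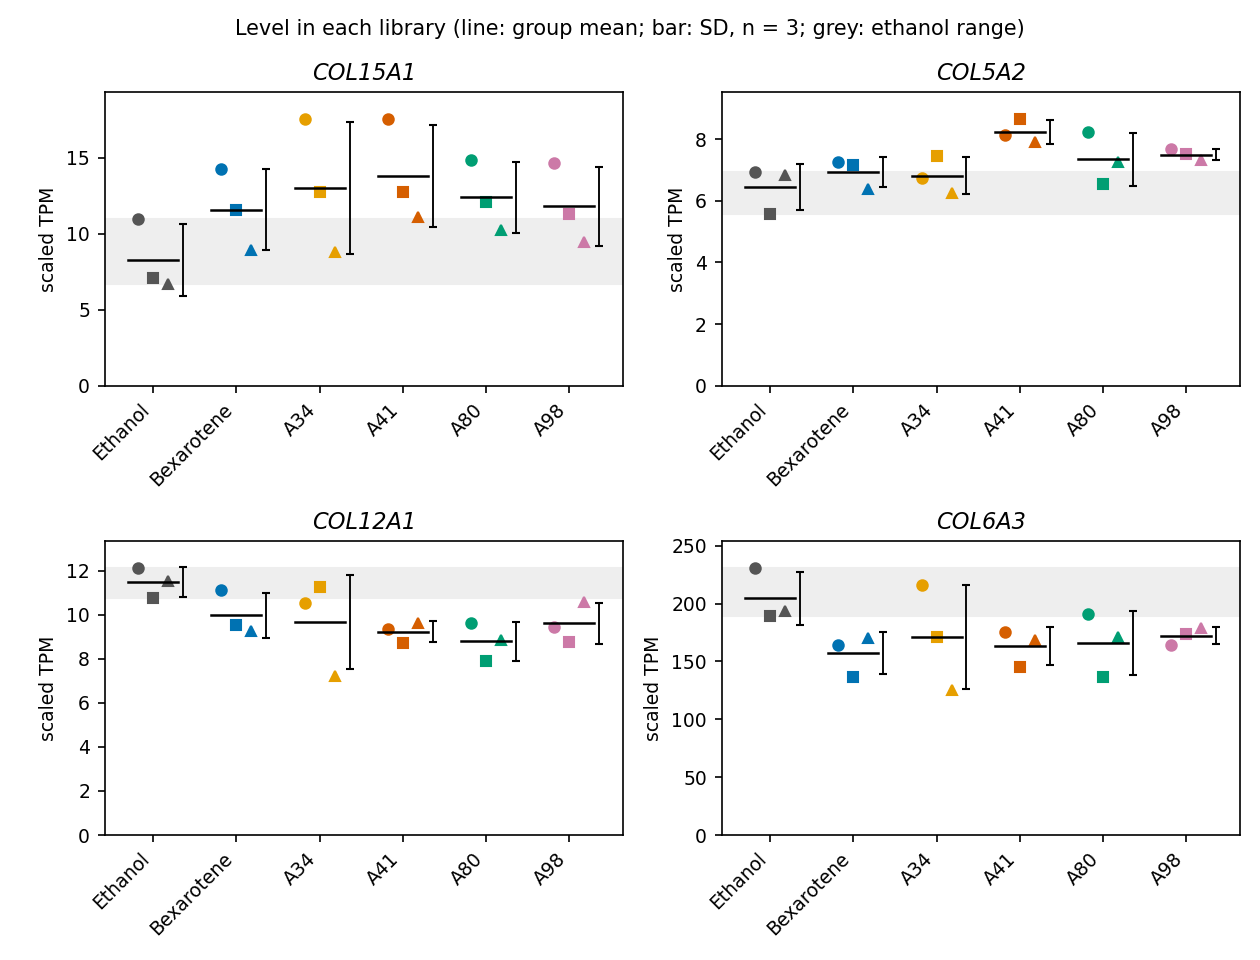
Scaled TPM of COL15A1, COL5A2, COL12A1 and COL6A3 in each library (symbol by replicate number), by group, with the group mean and SD (n = 3) and the ethanol range in grey. All 3 A41 libraries lie above that band for COL15A1 and COL5A2 and below it for COL12A1 and COL6A3.

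Of the other tested chains, the type IV chains COL4A2 (4.30 to 9.89 scaled TPM), COL4A5 (2.58 to 5.41) and COL4A6 (1.30 to 2.49) form the sheet of basement membranes. The short-chain collagen COL8A1, made in vessel walls, lay between 9.71 and 14.5, and the transmembrane collagen COL13A1 between 7.68 and 14.6. COL17A1, a transmembrane collagen of epithelial attachment, lay between 0.368 and 1.23, and COL10A1, a cartilage collagen, between 0 and 1.57. COL10A1 lies inside the span of NT5DC1 on the opposite strand, which averaged 10.4. Without a stated strand setting, reads in any shared exon sequence cannot be assigned, and how much they share was not examined. The estimates of these 7 chains against ethanol had adjusted p-values of 0.54 or more in limma. The A41 libraries of COL13A1 (7.68 to 8.92) and of COL4A6 (1.44 to 1.66) lay below all 3 ethanol libraries (8.997 to 11.8 and 1.96 to 2.31).

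Counting all 21 tested chains, the 3 libraries of a rexinoid lay wholly above the 3 ethanol libraries for 0 chains with bexarotene (6.66% of all genes), 0 for A34 (7.88%), 2 for A41 (7.91%), 0 for A80 (8.4%) and 1 for A98 (8.72%). They lay wholly below ethanol for 1 chain with bexarotene (6.08% of all genes), 1 for A34 (8.9%), 4 for A41 (7.94%), 1 for A80 (7.81%) and 2 for A98 (7.98%). The 4 chains below ethanol with A41 were COL6A3, COL12A1, COL13A1 and COL4A6.

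The compounds were compared with each other at the same dose and time, in 10 pairs, and no difference in a collagen chain passed the test. Their code names give no structure, so no structural difference is named. For A34 against bexarotene 0 chains were called and 1 had an unadjusted p under 0.05, beside 0% and 5.12% of all genes. The counts were 0 and 0 for A41 against bexarotene (0.109% and 6.11% of all genes), 0 and 1 for A80 against bexarotene (0% and 6%), and 0 and 1 for A98 against bexarotene (0.00547% and 6.81%). They were 0 and 2 for A41 against A34 (0.0712% and 7.84%), 0 and 1 for A80 against A34 (0% and 3.53%) and 0 and 1 for A98 against A34 (0.00547% and 4.7%). They were 0 and 2 for A80 against A41 (0.12% and 8%), 0 and 1 for A98 against A41 (0.12% and 7.28%) and 0 and 0 for A98 against A80 (0.00547% and 4.05%). The 95% intervals lay within 1 log2 unit of 0 for 19 or 20 of the 21 chains in each pair, which bounds the differences and does not show that the compounds act alike.

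COL1A2 stood behind 4 of these unadjusted results. It was higher with A80 than with A41 by 0.38 (SE 0.13, 95% interval 0.10 to 0.65, adjusted p = 0.45 in limma) and with A98 than with A41 by 0.38 (0.11 to 0.65, adjusted p = 0.50). Against bexarotene the difference was 0.33 with A80 (0.05 to 0.60, adjusted p = 0.80) and 0.33 with A98 (0.06 to 0.60, adjusted p = 0.70). The 3 libraries of A80 and of A98 lay above the 3 of A41 and of bexarotene, at 53.9 to 68.3 and 58.6 to 63.9 against 42.3 to 51.2 and 45.2 to 51.6. The share of all genes that separate in this way between rexinoids was not computed. COL16A1 and COL5A2 were higher with A41 than with A34 by 0.33 and 0.24 (adjusted p = 0.57 and 0.60), and COL6A1 was higher with A80 than with A41 by 0.47 (adjusted p = 0.61). The remaining 3 were differences between A34 and another compound in COL6A5, the chain seen in single libraries.

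Genes that fold, trim, crosslink, bind and degrade collagen were followed as 5 lists, and limma called none of their members with any rexinoid against ethanol. Of the 18 folding and modification genes 16 were tested, and 1, 5, 1, 5 and 1 had an unadjusted p under 0.05 for bexarotene, A34, A41, A80 and A98, where 5.8%, 10.7%, 10.4%, 9.45% and 6.66% of all genes did. The 3 of highest level were P4HB (426 scaled TPM on average), PPIB (380) and PLOD2 (253), a prolyl hydroxylase subunit, a prolyl isomerase and a lysyl hydroxylase. PLOD2 had estimates of 0.78 with A34 (SE 0.29, adjusted p = 0.36) and 0.71 with A80 (adjusted p = 0.48), while those of P4HB and PPIB lay between -0.08 and 0.08. SERPINH1, the collagen chaperone, averaged 37.1, with estimates of 0.35 to 0.54 over the 5 rexinoids and an adjusted p of 0.19 for their mean. SERPINH1 is named here after its values were seen.

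Of the 5 crosslinking genes 4 were tested, and 0, 3, 1, 2 and 1 had an unadjusted p under 0.05 in the same order of rexinoids, beside the same 5.8%, 10.7%, 10.4%, 9.45% and 6.66% of all genes. LOXL2, a lysyl oxidase that prepares collagen for crosslinking, averaged 159 scaled TPM. Its estimates were 0.43 for bexarotene, 0.79 for A34, 0.64 for A41, 0.73 for A80 and 0.54 for A98 (SE 0.21 each), with adjusted p-values of 0.21 or more in limma. With the replicate block that stands beside the A41 comparison, LOXL2 was called there at 0.64 (adjusted p = 0.00653 in limma). That fit called 1.05% of all genes, and the limits of the block given with COL15A1 hold here too. LOX, which ranged from 25.4 to 215 over the libraries, had 1.21 with A34 (SE 0.56, adjusted p = 0.46), and LOXL1 (30.6 on average) lay between -0.21 and 0.00. The 4 tested genes had median estimates of 0.19, 0.60, 0.095, 0.57 and 0.40 with bexarotene, A34, A41, A80 and A98.

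Of the 8 procollagen processing genes 4 were tested. PCOLCE, an enhancer of propeptide removal, averaged 48.2 scaled TPM, BMP1, the protease it assists, 16.9, and PCOLCE2 8.15. PCOLCE had an estimate of 0.26 with A41 (SE 0.10, adjusted p = 0.35). Of the 8 degradation and uptake genes 5 were tested, led by the gelatinase MMP2 at 533, the membrane collagenase MMP14 at 127 and the cathepsin CTSK at 44.7. MMP2 lay between -0.02 and 0.08 with the 5 rexinoids. Of the 9 receptors 7 were tested, led by the integrin chain ITGB1 at 323, the adhesion receptor ADGRG1 at 196 and the integrin chain ITGA2 at 47.4, with estimates between -0.18 and 0.17. At an unadjusted p under 0.05 in limma the processing genes numbered 0, 0, 1, 2 and 1 for bexarotene, A34, A41, A80 and A98. In the same order the degradation and uptake genes numbered 0, 0, 0, 1 and 0, and the receptors 1, 1, 1, 2 and 0. The shares of all genes were 5.8%, 10.7%, 10.4%, 9.45% and 6.66%.

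The libraries numbered 1 stood out among the collagen chains. COL6A2, COL7A1, COL1A2, COL1A1, COL5A1 and COL15A1 were highest in replicate 1 in all 6 groups, and COL6A1 in 5 of 6. That is 7 of the 21 tested chains, or 33.3%, with replicate 1 highest in at least 5 groups, where 5.53% of all 18269 genes were. The labels give no reason for it. The numbers in the names of the deposited tables differ from those of the titles in all 6 groups, where replicate 3 carries 4. For A98 replicate 1 the name carries 2, while replicate 1 of the other groups carries 1. The spread that replicate 1 adds within each group is part of the standard errors above in the fits without a block. The fit with the title numbers as a block takes out the part shared by the groups.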

How the data were processed

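RNA from 18 libraries of U87 cells was analysed as deposited, 3 for each of 6 groups. Ribosomal RNA was removed with a ribodepletion kit before paired-end sequencing, per the labels' protocols. The authors' tables hold TPM, FPKM and coverage per gene, made with STAR and StringTie on GRCh38 per the submitters' processing notes; their versions and the strand setting: not given in the sources used here. Read counts were not used; the deposited coverage and FPKM give the aligned bases of a library, since 97.75% of 1867 single-transcript genes lay within 1% of 1 ratio in ethanol replicate 1. The tables of the A98 group carry another compound number in their names; groups follow the labels.

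TPM was divided by a median-of-ratios factor (genes above 0 in every library, 0.417 to 1.21), filtered at 1 TPM in at least 3 libraries and tested as log2(scaled TPM + 1), which understates changes of low genes, with limma 3.58.1 in R 4.3.3 (trend, all 6 groups in 1 model, adjusted p-value threshold 0.05). Log2 fold changes of the deposited TPM are on that scale. The test was tried on simulated data first. Ratios of chains were compared with exact permutation tests in Python 3.11.15; these were added after other results were seen.

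The collagen members, gene lists and tests were chosen with earlier results of these data known. Values in every library are given for the 8 chains of highest level, any chain called, and the 2 of smallest p in each comparison with ethanol; each other list shows its called genes or its 3 of highest level.

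Same-numbered libraries were checked for pairing by the correlation of their deviations from the group means. Over 45 pairs the lowest was -0.36, the median 0.03 and the highest 0.31. Over 90 pairs of different numbers the lowest was -0.27, the median -0.006 and the highest 0.45. Every same-numbered pair was over 0.1 only between ethanol and A41 (0.17, 0.31 and 0.12 for numbers 1, 2 and 3). The deviations of a group sum to 0, so these 3 values are not independent. The block is given for that comparison and elsewhere only as an alternative, and it was fitted over all 18 libraries. Alternatives were other scalings, FPKM, a pseudocount of 0.1, no filter or 5 TPM, only the groups compared, replicate blocks, each library left out, and the 3 libraries with over 20% ribosomal RNA left out.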

Additional observations from a re-analysis of the deposited data

How the results depend on the processing

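Of 185 recomputed counts of called chains or processing genes, 176 were the same as reported. Of 156 recomputed fold changes of the 2 chains of smallest p in each comparison, 153 kept their sign and their side of the threshold, though sizes moved: COL9A2 with A98 ran from 0.44 to 2.38 and COL6A5 with A34 from 0.96 to 3.05. 13 of 13 mean levels moved by less than the mean SD within groups with TPM as deposited. The calls that differed come from fits with a replicate block, and 1 library left out. With the block from the titles, limma called 1 chain, COL15A1, with A34 (0.58, adjusted p = 0.00963, 181 of 18269 genes called), with A41 (1 chain), with A80 (0.55, adjusted p = 0.0149, 118 genes called) and for the mean of the 5 rexinoids (1 chain, 0.55, adjusted p = 0.002, 155 genes called), and 1 processing gene, LOXL2. With the replicate block from the file numbers it called 1 chain, again COL15A1, with A41 (0.60, adjusted p = 0.0163, 121 genes called) and for the mean of the 5 (adjusted p = 0.0141, 93 genes called), and 1 processing gene, LOXL2. The block changed no other count. Leaving out each replicate in turn gave 0 to 1 processing genes. The 1 was SERPINH1 with A41 without A41 replicate 1 (0.72, adjusted p = 0.0306 in limma). The share of all genes called in that fit is not given here, so the call cannot be set against it. All counts of chains stayed at 0 when a replicate was left out.

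With TPM as deposited the median fold change of all genes moved to -0.16 with bexarotene, -0.27 with A41 and 0.15 with A98, and that of the chains to -0.11, -0.23 and 0.18. The COL6A3 to COL6A1 ratio lost its unadjusted exact permutation p under 0.05 without the libraries rich in ribosomal RNA and without any 1 of 12 libraries (exact p up to 0.132, without ethanol replicate 3); the ratio alternatives were chosen after seeing the data. For the mean of the 5 rexinoids and the groups compared alone no value was computed. Low chains (COL9A2, COL10A1, COL17A1 and COL6A5, at 1 scaled TPM or less on average) have no counting interval here, since read counts were not used; the part of sequencing depth in their values was not tested.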
